A study of Mus musculus with 9 samples.

Results

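The genes described here are 10 members of the NRF2 pathway outside the glutathione transferases, followed in mouse liver after treatment with AdipoRon or with a PEGylated form of it: *Nfe2l2*, *Keap1*, *Nqo1*, *Gclc*, *Gclm*, *Txnrd1*, *Srxn1*, *Hmox1*, *Cbr3* and *Gpx2*. They were chosen by gene symbol, and all 10 were found among the 35275 entries of the deposited count table. Total RNA was sequenced from the livers of C57BL/6 mice in 3 groups of 3 libraries: vehicle (PBS), AdipoRon, a synthetic compound that activates adiponectin receptors, and AdipoRonPEG5, a form of AdipoRon with polyethylene glycol attached. The labels give injections 2 times a day for 5 days at 5 mg/kg, in one statement that covers PBS as well as the compounds, which leaves the compounds' own doses uncertain. Sex, age and diet are not stated in the labels. The labels do not say that the libraries of a group came from separate mice, and p-values measure only the spread between these libraries, which may be technical.

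NRF2, encoded by *Nfe2l2*, is a transcription factor that switches on genes for antioxidant defence and detoxification. KEAP1 holds NRF2 in the cytoplasm and presents it to a CUL3 ubiquitin ligase for destruction. Electrophiles and oxidants modify cysteines of KEAP1, NRF2 then accumulates without any need for more of its mRNA, pairs with a small MAF protein and binds antioxidant response elements. In liver its targets supply glutathione and NADPH, reduce quinones and peroxides, conjugate and export reactive compounds, and handle heme and iron.

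The core of the antioxidant response element was searched as TGACNNNGC and as TGAGNNNGC on both strands in the 250 bases before each RefSeq start site (GRCm38.p6). Promoter sequence was found for 8 of the 10 genes, with 10 start sites, and *Gclc* and *Hmox1* were not searched. *Srxn1*, *Gclm*, *Nfe2l2* and the second of 3 start sites of *Txnrd1* held a match, and of all 32851 RefSeq windows of 250 bases 23.0% held 1 or the other form (10.2% TGACNNNGC and 14.4% TGAGNNNGC). The windows with a match are shown, together with those of *Nqo1* and *Cbr3*, the quinone and carbonyl reductase genes among the 10; capitals mark the matches. They lie at chr2:152105274-152105523 (plus strand, *Srxn1*), chr3:122245307-122245486 (plus strand, *Gclm*), chr10:82858956-82859205 (plus strand, *Txnrd1*), chr2:75704664-75704913 (minus strand, *Nfe2l2*), chr8:107403206-107403455 (minus strand, *Nqo1*) and chr16:93682969-93683218 (plus strand, *Cbr3*). For *Gclm* the full 250 bases were searched and 180 are printed, since the rest before its start site lies inside the annotated gene. A match is a description of letters and not a bound site.
Srxn1: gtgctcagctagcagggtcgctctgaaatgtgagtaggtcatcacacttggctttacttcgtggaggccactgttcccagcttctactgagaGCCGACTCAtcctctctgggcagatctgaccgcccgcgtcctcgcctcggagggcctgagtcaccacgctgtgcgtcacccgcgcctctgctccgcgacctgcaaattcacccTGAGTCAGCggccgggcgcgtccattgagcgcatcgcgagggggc
Gclm: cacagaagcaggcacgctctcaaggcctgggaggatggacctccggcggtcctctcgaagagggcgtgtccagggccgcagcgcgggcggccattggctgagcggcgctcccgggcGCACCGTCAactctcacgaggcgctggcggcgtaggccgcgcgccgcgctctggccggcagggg
Txnrd1: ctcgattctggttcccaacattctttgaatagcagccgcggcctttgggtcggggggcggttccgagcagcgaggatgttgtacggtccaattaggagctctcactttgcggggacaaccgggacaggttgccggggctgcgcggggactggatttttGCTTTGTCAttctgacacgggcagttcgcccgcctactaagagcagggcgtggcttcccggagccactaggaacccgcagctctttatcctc
Nfe2l2: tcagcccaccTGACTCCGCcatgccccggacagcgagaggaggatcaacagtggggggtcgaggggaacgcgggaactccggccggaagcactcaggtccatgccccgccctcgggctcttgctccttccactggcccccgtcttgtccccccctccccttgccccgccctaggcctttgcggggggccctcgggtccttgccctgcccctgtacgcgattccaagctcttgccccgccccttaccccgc
Nqo1: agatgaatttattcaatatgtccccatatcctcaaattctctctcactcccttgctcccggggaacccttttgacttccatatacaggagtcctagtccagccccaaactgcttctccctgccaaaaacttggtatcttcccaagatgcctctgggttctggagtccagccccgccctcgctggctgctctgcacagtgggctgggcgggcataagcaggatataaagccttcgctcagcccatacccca
Cbr3: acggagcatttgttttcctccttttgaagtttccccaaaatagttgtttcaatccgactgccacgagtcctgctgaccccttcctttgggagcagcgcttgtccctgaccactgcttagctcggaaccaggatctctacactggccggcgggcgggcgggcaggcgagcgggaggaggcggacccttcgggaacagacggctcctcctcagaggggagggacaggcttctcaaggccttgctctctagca

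In *Srxn1* the match TGAGTCAGC began 45 bases before the start site on the plus strand, and another, read as GCCGACTCA on the plus strand, began 158 bases before it. The match in *Gclm* (GCACCGTCA, minus strand form) began 134 bases before the start site, counted over the bases not printed as well, that in *Txnrd1* (GCTTTGTCA, minus strand form) 92 bases and that in *Nfe2l2* (TGACTCCGC) 240 bases. Of the genes with a match, *Srxn1* was called in AdipoRonPEG5 livers and *Gclm*, *Txnrd1* and *Nfe2l2* were not. Of the genes whose windows do not hold the letters searched, *Nqo1*, *Cbr3* and *Gpx2* were called and *Keap1* was not.

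Library totals ran from 13942322 to 18508950 counts in 8 libraries, with 39473195 in vehicle 1. Levels are given as CPM, the count relative to the TMM-scaled library total, which allows comparison between libraries, and the floor of 3 counts lies between 0.076 and 0.215 CPM. The sum of 9 hepatocyte markers was 77700 to 100000 CPM over all libraries, with none at 0; *Apoa1*, *Cps1* and *Serpina1c* among them fell with AdipoRonPEG5 and 0 were called with AdipoRon. Vehicle 3 and AdipoRonPEG5 1 stood apart in the acute phase gene *Saa1* (4960 and 1950 CPM, against 45.0 to 496 CPM elsewhere), and the calls of the 10 genes were therefore also computed without them. Differences were tested in 1 edgeR quasi-likelihood fit of all 9 libraries and 13151 genes, and called at a Benjamini-Hochberg adjusted p under 0.05.

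AdipoRonPEG5 livers had more mRNA of 5 of the 10 genes than vehicle livers: *Gpx2*, *Cbr3*, *Hmox1*, *Nqo1* and *Srxn1*. None was lower, and *Nfe2l2*, *Keap1*, *Gclc*, *Gclm* and *Txnrd1* did not pass. Among all genes tested 9.55% were called higher and 7.63% lower in this comparison. Of the 10 genes, 8 were higher in every AdipoRonPEG5 library than in every vehicle library, against 18.2% of all genes tested. With AdipoRon 1 gene, *Hmox1*, was called higher and 0 lower, where 3.8% and 1.4% of all genes were called. At an unadjusted p under 0.05 the AdipoRon counts among the 10 genes were also 1 and 0, where 21.9% of all genes tested passed in either direction. DESeq2 called 1 and 0 of the 10, and 651 and 365 of all genes. That 1 gene was also the only one of the 10 that lay above every vehicle library (14.4% of all genes did). The median log2 fold change of the 10 genes was 0.69 with AdipoRonPEG5 and 0.009 with AdipoRon, beside medians of all genes tested of -0.001 and 0.006. Both comparisons share the vehicle libraries. *Gpx2* passed the filter on low counts only through its AdipoRonPEG5 libraries, so its place among the genes tested rests on the group where it is high. With AdipoRon against vehicle it was at or under the floor in both groups, yet it is included in the 10 and in their median. *Cbr3* did not pass the filter in a fit of vehicle and AdipoRon alone.

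**Figure D1:**
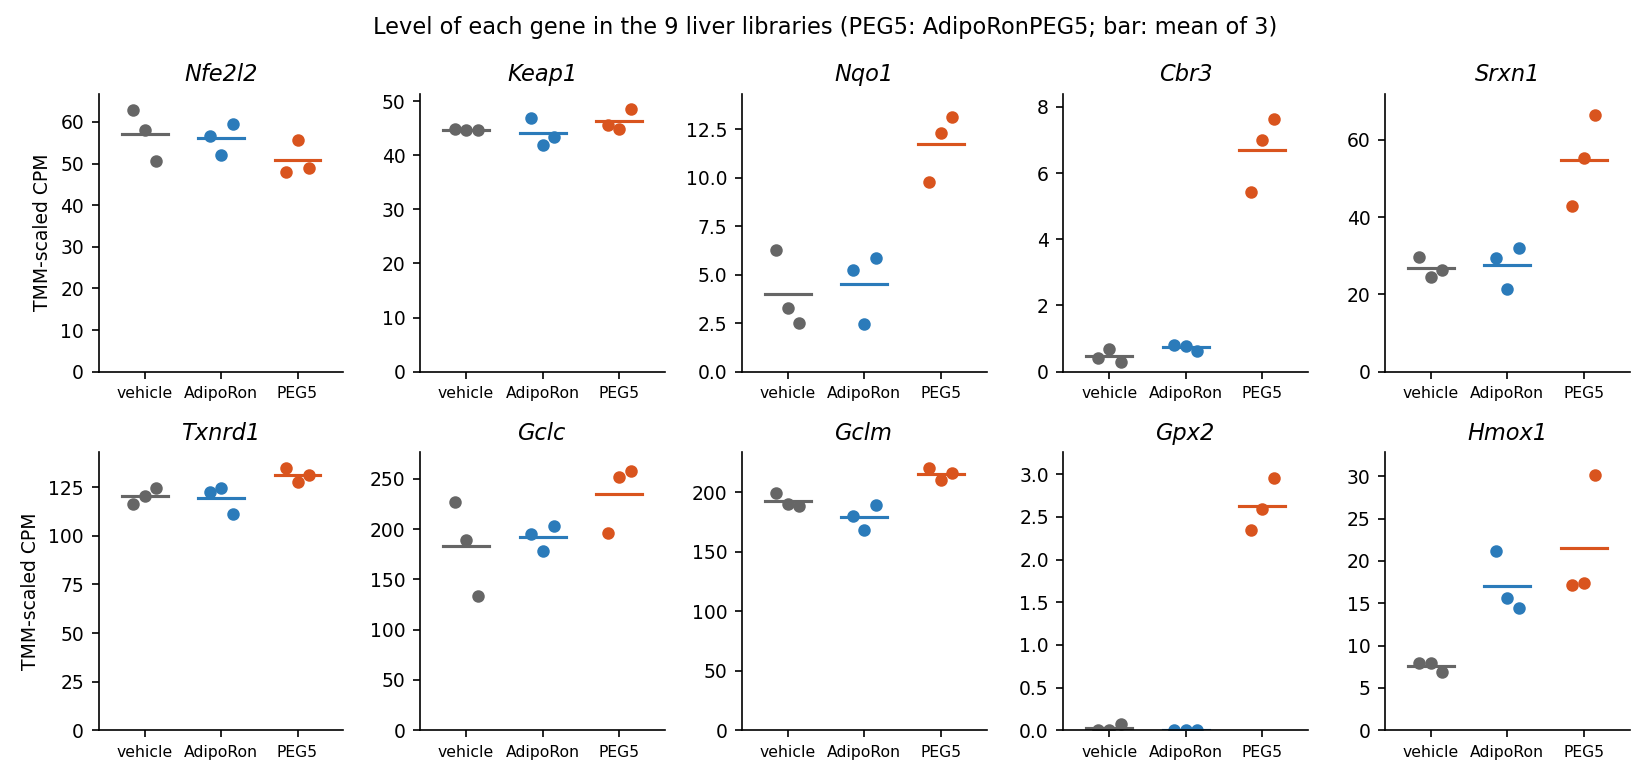
Level of each gene in TMM-scaled CPM (vertical axis, from 0) in vehicle, AdipoRon and AdipoRonPEG5 livers; points are the 3 libraries of a group in the order 1 to 3, and bars their mean. *Nqo1*, *Cbr3*, *Srxn1* and *Gpx2* lie higher in the AdipoRonPEG5 libraries alone, and *Hmox1* in the libraries of both compounds. *Gclm* and *Txnrd1* also lie above the other groups with AdipoRonPEG5, by little and without a call. *Gclc* overlaps between groups, and *Nfe2l2* (47.9 to 62.9 CPM) and *Keap1* (42.0 to 48.6 CPM) do so or nearly so.

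The regulators came first. *Nfe2l2*, the gene of NRF2, was at 62.9, 58.0 and 50.7 CPM in the vehicle libraries 1 to 3, at 56.6, 52.1 and 59.5 CPM with AdipoRon and at 47.9, 55.7 and 48.9 CPM with AdipoRonPEG5. The groups overlapped, and the log2 fold change with AdipoRonPEG5 was -0.17 ± 0.097 (SE; 95% interval -0.39 to 0.041; edgeR Benjamini-Hochberg adjusted p = 0.254). With AdipoRon it was -0.032 (-0.25 to 0.18; adjusted p = 0.885). *Keap1*, the gene of its inhibitor, was at 44.7 CPM in each vehicle library, at 42.0 to 46.8 CPM with AdipoRon and at 44.9 to 48.6 CPM with AdipoRonPEG5. All AdipoRonPEG5 libraries were above all vehicle libraries because the vehicle libraries were so close together, and the difference was small (0.052 ± 0.070; interval -0.10 to 0.21; adjusted p = 0.664). With AdipoRonPEG5 the intervals thus ended at 0.765 times the vehicle level on the low side for *Nfe2l2* and at 1.15 times it on the high side for *Keap1*. The ratio of *Keap1* to *Nfe2l2*, taken within each library from deposited FPKM, was 0.394 to 0.488 in vehicle, 0.403 to 0.458 with AdipoRon and 0.446 to 0.550 with AdipoRonPEG5, so that the groups overlapped.

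The quinone and carbonyl reductase genes among the 10, *Nqo1* and *Cbr3*, were called higher with AdipoRonPEG5. Outside the 10, *Nqo2* (log2 fold change -0.28) and *Cbr4* (-0.12) were not called. *Nqo1* encodes the NAD(P)H quinone dehydrogenase that reduces quinones to hydroquinones and is the customary readout of NRF2 activity. It was at 6.27, 3.29 and 2.53 CPM in vehicle, 5.24, 2.44 and 5.87 CPM with AdipoRon, and 9.80, 12.3 and 13.1 CPM with AdipoRonPEG5. Every AdipoRonPEG5 library was above all 6 others, while vehicle and AdipoRon overlapped widely and each varied by more than 2.4-fold between its own libraries (highest over lowest 2.48 and 2.40). *Nqo1* rose 2.74-fold with AdipoRonPEG5 (log2 fold change 1.46 ± 0.34 (SE), 95% interval 0.71 to 2.20, edgeR Benjamini-Hochberg adjusted p = 0.014). The call ended without AdipoRonPEG5 3 (log2 fold change 1.37, adjusted p = 0.0519) or vehicle 2 (1.33, adjusted p = 0.056), and without vehicle 1, the highest vehicle library, the value was 2.01. With AdipoRon the log2 fold change was 0.065 (-0.72 to 0.85, adjusted p = 0.939), an interval that still holds changes of up to 1.81-fold.

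*Cbr3*, a carbonyl reductase that reduces ketones and quinones with NADPH, was close to the floor in vehicle, with 16, 9 and 4 counts (0.411, 0.672 and 0.297 CPM). AdipoRon libraries held 13, 14 and 9 counts (0.801, 0.777 and 0.614 CPM), and AdipoRonPEG5 libraries 88, 135 and 124 counts (5.43, 7.0 and 7.64 CPM). The lowest AdipoRonPEG5 library lay far above the highest of the other 6. *Cbr3* rose 14.8-fold with AdipoRonPEG5 (log2 fold change 3.89 ± 0.27 (SE), 95% interval 3.29 to 4.49, edgeR Benjamini-Hochberg adjusted p = 2.2e-05). The AdipoRon libraries overlapped with vehicle, at a log2 fold change of 0.71 (-0.043 to 1.46, adjusted p = 0.253). *Cbr1*, its neighbouring and closely related paralog, rose as well: it was at 59.7 to 88.3 CPM in vehicle, 65.7 to 74.6 CPM with AdipoRon and 158 to 174 CPM with AdipoRonPEG5 (1.09 ± 0.13, adjusted p = 0.000591). The labels do not say how reads shared by both paralogs were assigned.

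Of the thioredoxin branch, the repair enzyme responded and the reductase did not pass. *Srxn1* encodes sulfiredoxin, which restores peroxiredoxins that peroxide has over-oxidized. It was at 29.7, 24.4 and 26.4 CPM in vehicle, 29.3, 21.5 and 32.0 CPM with AdipoRon, and 42.9, 55.3 and 66.3 CPM with AdipoRonPEG5. Vehicle and AdipoRon shared 1 range, and all AdipoRonPEG5 libraries lay above it. *Srxn1* rose 2.03-fold with AdipoRonPEG5 (log2 fold change 1.02 ± 0.17 (SE), 95% interval 0.65 to 1.40, edgeR Benjamini-Hochberg adjusted p = 0.00296), and was at 0.030 with AdipoRon (-0.35 to 0.41, adjusted p = 0.943). *Txnrd1*, the cytosolic thioredoxin reductase, was at 116 to 125 CPM in vehicle, 111 to 125 CPM with AdipoRon and 128 to 135 CPM with AdipoRonPEG5. Its AdipoRonPEG5 libraries were all above the other 6, yet the difference of 1.09-fold did not pass (0.13 ± 0.071, interval -0.032 to 0.28, adjusted p = 0.261).

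Glutathione synthesis begins with glutamate-cysteine ligase, which joins a catalytic subunit (*Gclc*) and a modifier subunit (*Gclm*). *Gclc* was at 227, 189 and 134 CPM in vehicle, 195, 178 and 203 CPM with AdipoRon, and 196, 252 and 257 CPM with AdipoRonPEG5. The lowest values of the vehicle and AdipoRonPEG5 groups were in vehicle 3 and AdipoRonPEG5 1, the 2 libraries with the highest *Saa1*; the part of this in the result was not tested. AdipoRonPEG5 1 was also the lowest of its group for *Nqo1*, *Cbr3*, *Srxn1*, *Hmox1*, *Gpx2* and *Nfe2l2*, and the highest for *Gclm* and *Txnrd1*. Vehicle 3 was the lowest of its group for *Nqo1*, *Cbr3*, *Hmox1*, *Nfe2l2* and *Gclm* as well, and the highest for *Txnrd1* and *Gpx2*. A low vehicle library enlarges a rise over vehicle, and a low AdipoRonPEG5 library lessens it. The log2 fold change of *Gclc* with AdipoRonPEG5 was 0.36 ± 0.17 (SE; 95% interval -0.011 to 0.73; edgeR Benjamini-Hochberg adjusted p = 0.173), and 0.30 without both libraries (adjusted p = 0.0948). With AdipoRon it was 0.067 (-0.30 to 0.44, adjusted p = 0.86). *Gclm* varied little: 199, 190 and 188 CPM in vehicle, 180, 168 and 189 CPM with AdipoRon, and 220, 210 and 216 CPM with AdipoRonPEG5. The AdipoRonPEG5 libraries were again all above the other 6, but the 1.12-fold difference from vehicle did not pass (0.16 ± 0.073, interval 0.0015 to 0.32, adjusted p = 0.155). Within a library the ratio of *Gclc* to *Gclm* FPKM was 1.5 to 1.54 with AdipoRon, and spread from 1.01 (vehicle 3) to 1.61 in vehicle and from 1.26 (AdipoRonPEG5 1) to 1.70 with AdipoRonPEG5.

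*Gpx2*, a selenium-dependent glutathione peroxidase best known from gut epithelium, was at or under the floor of 3 counts in every library without AdipoRonPEG5. It had 0, 0 and 1 count in vehicle, 0, 0 and 0 counts with AdipoRon, and 38, 50 and 48 counts with AdipoRonPEG5 (2.34, 2.59 and 2.96 CPM). All its signal but 1 count was thus in the AdipoRonPEG5 libraries, at low abundance, and it was tested only because of them. *Gpx2* rose with AdipoRonPEG5 against vehicle (edgeR Benjamini-Hochberg adjusted p = 0.000371), with a ratio of 136 counts to 1 of 173 after scaling (95% exact interval 30.5 to 6880, for counting error only). The 1 vehicle count was in vehicle 3, and without that library the level was at least 45.8-fold higher, taking a floor of 3 counts over the group. Against AdipoRon it was at least 42.8-fold higher on the same floor (adjusted p = 0.000867). Of 6 gut epithelium markers, *Krt20* was at 0 in all libraries and *Cdh17* in all but AdipoRonPEG5 2, which had 1 count; *Vil1* had 1 to 5 counts and *Muc2* 0 to 4 in each library. The sum of the 6 was 92.4 to 132 CPM in vehicle, 73.1 to 111 CPM with AdipoRon and 63.3 to 67.5 CPM with AdipoRonPEG5. Nearly all of it came from *Fabp2*, which fell with AdipoRonPEG5 (-1.24 ± 0.15, adjusted p = 0.000594), and *Lgals4* (-0.11, not called). The part of such cells in the *Gpx2* result was not tested. *Fntb*, which overlaps *Gpx2* on the other strand in GENCODE M21, had 43 to 95 counts in vehicle and 49 to 57 with AdipoRonPEG5 (log2 fold change -0.030 ± 0.23, adjusted p = 0.948). Whether counting used strand is not stated, so reads of the 2 genes cannot be told apart with certainty.

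*Hmox1* encodes heme oxygenase 1, which opens the heme ring to biliverdin, iron and carbon monoxide, and is also repressed by the heme sensor BACH1. It was at 7.91, 7.92 and 6.84 CPM in vehicle, 21.2, 15.6 and 14.4 CPM with AdipoRon, and 17.1, 17.4 and 30.1 CPM with AdipoRonPEG5. Both compounds' libraries lay above every vehicle library, and they overlapped with each other. *Hmox1* rose 2.84-fold with AdipoRonPEG5 (log2 fold change 1.5 ± 0.23 (SE), 95% interval 1.0 to 2.0, edgeR Benjamini-Hochberg adjusted p = 0.0018) and 2.25-fold with AdipoRon (1.17 ± 0.23, interval 0.67 to 1.67, adjusted p = 0.018). The AdipoRon call ended without AdipoRon 1 (log2 fold change 0.98, adjusted p = 0.056), vehicle 1 (1.20, adjusted p = 0.0559) or vehicle 2 (1.19, adjusted p = 0.0593).

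Kupffer cells, the macrophages of the liver, carry much of its heme oxygenase 1, and markers of these cells moved with both compounds too. The sum of 16 Kupffer cell and macrophage markers was 264 to 405 CPM in vehicle, 593 to 1050 CPM with AdipoRon and 917 to 971 CPM with AdipoRonPEG5, with none at 0. Of the 16, 14 rose and 0 fell with AdipoRonPEG5, 12 rose and 0 fell with AdipoRon, and 0 were called between the compounds. Their median log2 fold changes were 1.71, 1.29 and 0.26. Of all genes tested, 9.55%, 3.8% and 2.68% were called higher in these 3 comparisons. Among the 16 markers, *Marco*, *Cd5l*, *C1qc* and *Lyz2* had the lowest p with AdipoRonPEG5 (4.26, 1.98, 1.65 and 1.93), and *Marco* also with AdipoRon (4.05). AdipoRon 1 had the highest marker sum of all libraries (1050 CPM) and the highest *Hmox1* of its group, and AdipoRon 2 and 3 followed in the same order in both (673 and 593 CPM for the markers). AdipoRonPEG5 3, with the highest *Hmox1* of all, also had the highest sum of its group, at 971 CPM beside 926 and 917 CPM. AdipoRonPEG5 1 and 2 ran in opposite order, with 926 and 917 CPM for the markers and 17.1 and 17.4 CPM for *Hmox1*. Vehicle 3 had the highest marker sum of its group (405 CPM, beside 291 and 264 CPM). Its *Hmox1* was the lowest, at 6.84 CPM beside 7.91 and 7.92 CPM. The part of these cells in the *Hmox1* result was not tested, and in bulk liver more cells of a type and more RNA per cell cannot be told apart.

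Given at the same stated dose and schedule, the compounds differed in 4 of the 10 genes, which were higher with AdipoRonPEG5, and 0 were lower (2.68% and 2.71% of all genes tested were called higher and lower). At an unadjusted p under 0.05 there were 5 and 0, where 21.8% of all genes tested passed in either direction. DESeq2 called 5 of the 10 higher and 0 lower, and 508 and 500 of all genes. Of the 10 genes, 6 lay above every AdipoRon library, against 13.9% of all genes. *Gpx2* is in each of these counts of higher genes, and it passed the filter on low counts only through its AdipoRonPEG5 libraries. The log2 difference was 3.18 for *Cbr3* (95% interval 2.61 to 3.74, edgeR Benjamini-Hochberg adjusted p = 0.000124), 0.99 for *Srxn1* (0.62 to 1.37, adjusted p = 0.0105) and 1.39 for *Nqo1* (0.64 to 2.15, adjusted p = 0.0423), beside *Gpx2* above. For *Nqo1* this call ended without any 1 of the AdipoRon or AdipoRonPEG5 libraries, or without vehicle 2 (adjusted p from 0.0557 to 0.124). *Gclm* was just short of the threshold (0.27, interval 0.11 to 0.43, adjusted p = 0.0595) and passed with DESeq2 (adjusted p = 0.0103), with limma-voom (0.047), after dropping genes under a mean of 1 CPM (0.0475) and without vehicle 3 (0.0436). *Gclc* was at 0.29 (-0.078 to 0.66, adjusted p = 0.344) and passed at 0.42 without vehicle 3 and AdipoRonPEG5 1 together (adjusted p = 0.0433). For *Hmox1* the compounds were not told apart: the difference was 0.33, with an interval from -0.14 to 0.81 that holds up to 1.75-fold more with AdipoRonPEG5 (adjusted p = 0.402). *Txnrd1* (0.14, -0.020 to 0.29), *Keap1* (0.074, -0.081 to 0.23) and *Nfe2l2* (-0.14, -0.35 to 0.073) did not pass.

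**Figure D2:**
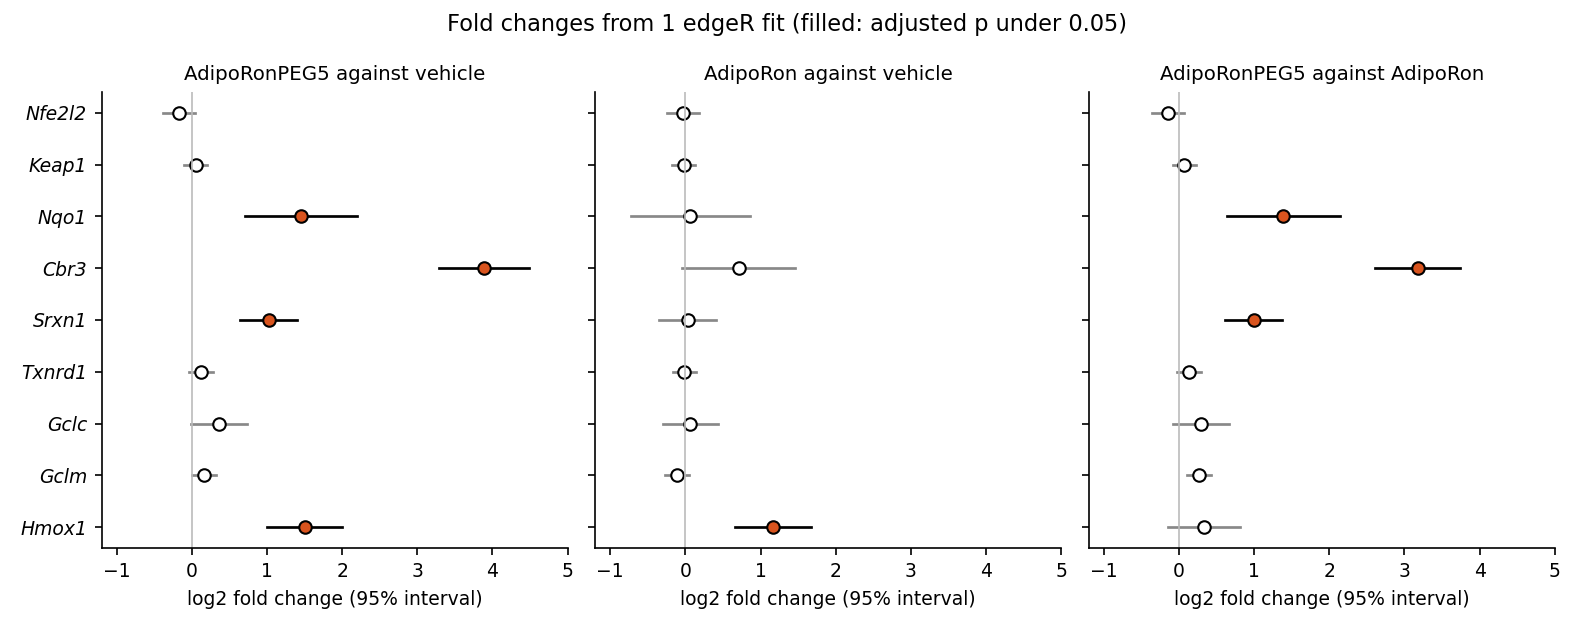
Log2 fold changes (horizontal axis) of 9 of the 10 genes in 3 comparisons, with 95% intervals as lines; filled points have an adjusted p under 0.05. *Gpx2* is left out because its fitted fold change rests on groups with 0 or 1 count. *Nqo1*, *Cbr3* and *Srxn1* are filled in both comparisons of AdipoRonPEG5, *Hmox1* in both comparisons with vehicle.

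Per length, as deposited FPKM, the genes kept much the same order in all groups but closed up with AdipoRonPEG5. In vehicle *Gclc* came first (51.5 ± 14.5 FPKM, SD, n = 3), and then *Gclm* (38.1 ± 2.26), *Txnrd1* (33.8 ± 0.184), *Nfe2l2* (22.2 ± 3.04), *Keap1* (9.58 ± 0.298), *Srxn1* (9.16 ± 1.12), *Hmox1* (4.52 ± 0.491), *Nqo1* (2.51 ± 1.3), *Cbr3* (0.378 ± 0.160) and *Gpx2* (0.022 ± 0.037). Neighbours whose libraries overlapped were *Gclc* and *Gclm*, *Keap1* and *Srxn1*, and *Hmox1* and *Nqo1*. With AdipoRon *Hmox1* (10.9 ± 2.42 FPKM) moved ahead of *Keap1* (10.1 ± 0.658) and *Srxn1* (10.1 ± 2.02), and the libraries of these 3 overlapped. With AdipoRonPEG5 *Srxn1* (19.8 ± 3.95 FPKM) reached the range of *Nfe2l2* (20.9 ± 2.20), *Hmox1* (13.6 ± 4.33) overlapped with *Srxn1*, and *Cbr3* (5.80 ± 0.949) overlapped with *Nqo1* (7.67 ± 1.09). The 5 genes called with AdipoRonPEG5 thus held the 5 lowest places of vehicle liver, and the 5 that did not pass the places above them. *Srxn1* and *Keap1*, at the border, overlapped in vehicle. The vehicle level also enters each fold change, so place and call are not independent.

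To see which other genes had a like pattern, each gene's log2 CPM was centred on its own mean over the 9 libraries. The log was taken after adding a prior count of 2, scaled to library size. The root mean square difference from each of the 10 was then computed for 8880 other genes with a mean of at least 5 CPM. All points come from the same libraries, and the values describe likeness and nothing else. Closest to *Nqo1* were *Ephx1*, the microsomal epoxide hydrolase (0.259 log2 units), the cytochrome P450 gene *Cyp2a5* (0.282) and the glutathione transferase gene *Gsta4* (0.304). Closest to *Cbr3* were the mu-class transferase genes *Gstm1* (0.360), *Gstm4* (0.432) and *Gstm2* (0.451). *Gstm1* was closest to *Gpx2* as well (0.649), ahead of *Gstp2* (0.796) and *Gstm3* (0.800). With 0 or 1 count in each library without AdipoRonPEG5, the low values of *Gpx2* are set by the prior count, and its nearest genes depend on it. *Srxn1* had genes of iron and heme handling nearest to it: the ferritin light chain gene *Ftl1* (0.150), the transferrin receptor gene *Tfrc* (0.153) and the heme transporter gene *Slc48a1* (0.157). Nearest to *Hmox1* were *Axl*, a receptor kinase by which phagocytes bind dying cells (0.168), the syndecan gene *Sdc3* (0.169) and *Arhgdib* (0.171), all nearer than any of the other 9 genes (*Srxn1*, 0.520). Chosen for their likeness to *Hmox1*, those 3 rose with AdipoRonPEG5 (log2 fold changes 1.47, 1.39 and 1.40) and with AdipoRon (1.04, 1.27 and 1.07).

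*Txnrd1*, *Keap1*, *Gclm* and *Nfe2l2* changed little (log2 fold changes 0.13, 0.052, 0.16 and -0.17 with AdipoRonPEG5). A small difference there says only that both genes stayed nearly level. Nearest to *Txnrd1* were *Dpp3* (0.0176), *Pfn1* (0.0289) and *Dicer1* (0.042), and to *Keap1* *Cops4* (0.0277), *Rnps1* (0.0302) and *Bnip3l* (0.0338). Nearest to *Gclm* were *Tmem59* (0.0427), *Dazap2* (0.0449) and *Tysnd1* (0.0455). For *Nfe2l2* they were *Slc35a5* (0.0232), *Snx12* (0.0439) and *Pex14* (0.0499), and for *Gclc* *Pus10* (0.0894), *Tie1* (0.0948) and *Aplp2* (0.0992).

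**Figure D3:**
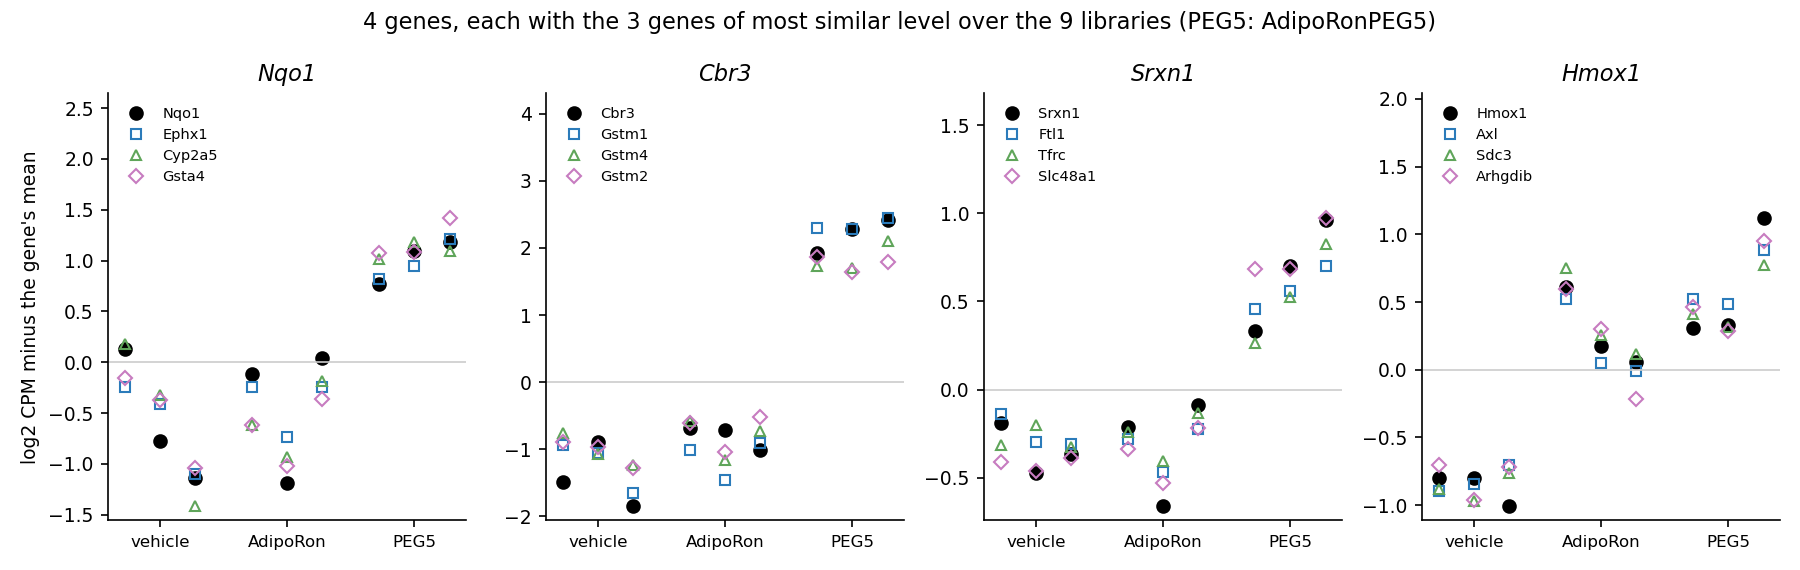
Log2 CPM minus the gene's own mean (vertical axis) for *Nqo1*, *Cbr3*, *Srxn1* and *Hmox1* (black) and the 3 genes nearest to each (open marks), in the 3 libraries of each group in the order 1 to 3. In the first 3 panels the AdipoRonPEG5 points of *Nqo1*, *Cbr3* and *Srxn1* lie above the same gene's vehicle and AdipoRon points, which overlap. The *Hmox1* panel shows both compounds above vehicle.

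The rest of the pathway was read from lists of other genes. Beside the counts of every list stand the shares of all genes tested, 9.55% higher and 7.63% lower with AdipoRonPEG5. These shares were 3.8% and 1.4% with AdipoRon, and 2.68% and 2.71% between the compounds. Of 14 partners and regulators of NRF2, 1 rose, 2 fell and 11 did not pass with AdipoRonPEG5 (median log2 fold change 0.033). With AdipoRon 1 rose and 1 fell. With so few genes, these counts lie near the shares of all genes. *Bach1*, the repressor that competes with NRF2 at *Hmox1* and other targets, was at 42.6 ± 1.92 CPM (SD, n = 3) in vehicle, and rose to 60.4 ± 5.67 CPM with AdipoRonPEG5 (0.50 ± 0.093 (SE), edgeR adjusted p = 0.00503) and to 58.1 ± 5.62 CPM with AdipoRon (0.45 ± 0.093, edgeR adjusted p = 0.0227). *Syvn1*, a ubiquitin ligase of the endoplasmic reticulum that can also act on NRF2, fell with both (-1.49 and -0.86). *Mafg*, a small MAF partner, fell with AdipoRonPEG5 (-0.41 ± 0.080) and differed between the compounds (-0.50 ± 0.080, adjusted p = 0.00834).

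Among the peroxide-removing enzymes that SRXN1 and thioredoxin serve, and their relatives, most genes did not pass with AdipoRonPEG5. Of 16 genes of thioredoxins, peroxiredoxins, dismutases and catalase, 3 rose, 0 fell and 13 did not pass (median log2 fold change 0.085), and with AdipoRon 0 rose and 2 fell. *Prdx1*, a substrate of sulfiredoxin, went from 662 ± 30.5 CPM (SD, n = 3) up to 1142 ± 18.6 CPM (0.79 ± 0.080 (SE), edgeR adjusted p = 0.000281), *Txn1* from 219 ± 4.55 to 355 ± 12.3 CPM (0.70 ± 0.071) and the mitochondrial *Prdx3* by 0.30 ± 0.069. With AdipoRon *Txn2* and *Prdx2* fell by 0.28 and 0.26 on the log2 scale.

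Glutathione supply had calls in both directions, and NADPH supply only rises. Of 12 tested glutathione genes, 3 rose, 2 fell and 7 did not pass with AdipoRonPEG5 (median 0.056), and 0 were called with AdipoRon. The lipid peroxidase *Gpx4* (0.62 ± 0.085), the 5-oxoprolinase *Oplah* (0.63 ± 0.088) and the glutathione reductase *Gsr* (0.30 ± 0.093) rose, and *Cth* (-0.46 ± 0.093) and *Cbs* (-0.41 ± 0.10), which make cysteine from methionine, fell. Of 9 NADPH genes, 3 rose and 0 fell with AdipoRonPEG5 (median 0.22): *G6pdx* (0.82 ± 0.15), *Pgd* (0.71 ± 0.12) and *Tkt* (0.52 ± 0.11), all of the pentose phosphate pathway. *Pgd* also rose with AdipoRon (0.48 ± 0.12, edgeR Benjamini-Hochberg adjusted p = 0.0424).

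Heme and iron handling, the setting of *Hmox1*, had rises but no falls with AdipoRonPEG5. Of 15 genes, 5 rose and 0 fell with AdipoRonPEG5 (median 0.37), 0 were called with AdipoRon (median 0.018), and the same 5 were called between the compounds. *Blvrb*, biliverdin reductase B, went from 117 ± 15.3 CPM (SD, n = 3) up to 328 ± 10.3 CPM (1.49 ± 0.10 (SE), edgeR adjusted p = 2.01e-05), *Slc48a1* by 1.21 ± 0.10, the ferritin heavy chain *Fth1* by 1.18 ± 0.12 and *Ftl1* by 0.82 ± 0.11. The fifth was *Tfrc* (0.84 ± 0.13).

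Of 14 genes of quinone, carbonyl and epoxide detoxification, 7 rose, 1 fell and 6 did not pass with AdipoRonPEG5 (median 0.48), and 0 were called with AdipoRon (median -0.009). Beside *Cbr1*, the rises included *Ephx1* (1.54 ± 0.21), the aldehyde oxidase *Aox1* (1.28 ± 0.19) and the aldo-keto reductase *Akr1a1* (0.48 ± 0.093). The glucuronosyltransferase *Ugt1a6a* fell (-0.60 ± 0.17). It was as low with AdipoRon, just short of the threshold (-0.61 ± 0.17, edgeR adjusted p = 0.0619), and the compounds differed by 0.010. Of 7 efflux pumps and other reported targets, 4 rose with AdipoRonPEG5 (median 1.20). They were *Abcc4* (3.04 ± 0.23), *Osgin1* (2.15 ± 0.24), *Cyp2a5* (1.48 ± 0.32) and *Abcc1* (1.20 ± 0.30). *Abcc1* rose with AdipoRon too (1.34 ± 0.30, edgeR Benjamini-Hochberg adjusted p = 0.0306), and *Osgin1* was just short of the threshold there (0.90 ± 0.23, adjusted p = 0.0516). Of 18 tested glutathione transferase genes, 10 rose and 1 fell with AdipoRonPEG5 (median 1.07) and 1 rose with AdipoRon (median -0.080). *Gsta1* went from 0.279 ± 0.237 to 491 ± 49.0 CPM (SD, n = 3) with AdipoRonPEG5, *Gstm3* rose by 6.12, *Gstm1* by 3.52 and *Gstm2* by 2.81 on the log2 scale, *Gstm7* fell (-0.35 ± 0.11), and *Gstm3* was the gene that rose with AdipoRon (1.01). Targets of the aryl hydrocarbon receptor, which can also induce *Nqo1*, were measured as a comparison. Of 3 tested, *Cyp1a2* rose with AdipoRonPEG5 (0.73 ± 0.13, edgeR adjusted p = 0.00412). *Cyp1a1* (0.50 ± 0.37, adjusted p = 0.40) and *Tiparp* (-0.19 ± 0.18, adjusted p = 0.513) were not called, and 0 were called with AdipoRon.

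**Figure D4:**
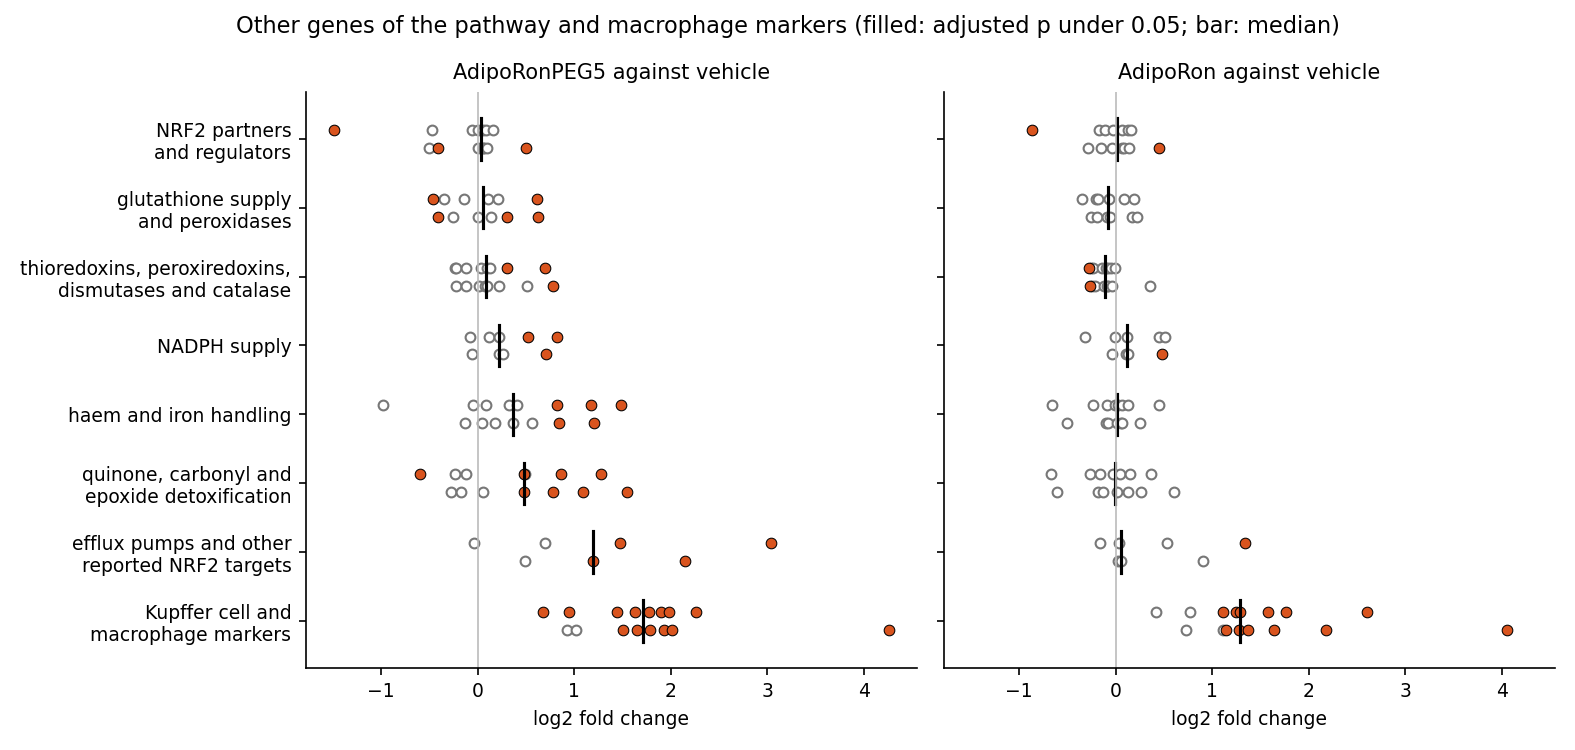
Log2 fold changes (horizontal axis) of the other genes of the pathway by list, and of Kupffer cell and macrophage markers, with AdipoRonPEG5 (left) and AdipoRon (right) against vehicle; each point is a gene, filled where the adjusted p is under 0.05, and bars are medians. With AdipoRonPEG5, 14 of 16 macrophage markers and 7 of 14 detoxification genes are filled on the higher side. So are 5 of 15 iron and heme genes and 4 of 7 efflux and other targets. With AdipoRon the same counts are 12, 0, 0 and 1. Of all genes tested, 9.55% were called higher with AdipoRonPEG5 and 3.8% with AdipoRon.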

How the data were processed

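Per the file headers, the authors' table gives each gene a raw read count and an FPKM value in every library. In 99.995% of nonzero entries, count and FPKM imply a gene length that is whole to within 0.01. FPKM served only for levels between genes, and counts for every test. STAR 2.5, TopHat, HTSeq 0.6.1, DESeq2 and edgeR are listed with no role or order, per the submitters' processing notes; build, annotation and strand setting are not given in the sources used here. Columns were tied to samples by the sample descriptions.

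Counts were tested in R 4.3.3 with edgeR 4.0.16 (quasi-likelihood, TMM, filterByExpr, 3 group means, 13151 genes), checked on simulated data. Standard errors follow from the F statistic. Intervals are at the 95% level. The 10 genes, the gene lists and the alternatives (those with DESeq2 1.42.0 and limma-voom, limma 3.58.1, among them) were chosen with earlier results of these data known. All 10 genes are named; of each list up to 4 called rises and 3 called falls of lowest p with AdipoRonPEG5, and up to 2 called in each other comparison; and the 3 genes of most like pattern, passing over unnamed gene models. Replicate numbers did not pair the libraries (see the closing section). Promoter sequences are from RefSeq (GRCm38.p6); overlapping genes are from GENCODE M21.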

Additional observations from a re-analysis of the deposited data

How the results depend on the processing

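Across 19 alternative fits of each comparison, 4 to 5 of the 10 genes were called higher with AdipoRonPEG5 against vehicle, 3 to 5 against AdipoRon, and 0 to 1 with AdipoRon against vehicle (0 without AdipoRon 1, vehicle 1 or vehicle 2); 0 were called lower in any. Leaving out 1 library at a time gave ranges of 4 to 5, 3 to 5 and 0 to 1. *Cbr3*, *Srxn1* and *Hmox1* kept their call with AdipoRonPEG5 against vehicle in all 19, and *Gpx2* in 18; the filter at a mean of 1 CPM does not test it.

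Counts over all genes depended more on the libraries. Leaving out 1 library at a time gave 800 to 1288 higher and 536 to 1046 lower with AdipoRonPEG5 against vehicle (1256 and 1004 with all), 201 to 471 and 41 to 177 with AdipoRon (500 and 184), and 135 to 551 and 98 to 481 between the compounds (352 and 357). The libraries that moved a count by over 1.5 times were vehicle 2, AdipoRonPEG5 2 and AdipoRonPEG5 3 in the first comparison, all but vehicle 3, AdipoRonPEG5 1 and AdipoRonPEG5 3 in the second, and all but vehicle 1 and vehicle 2 in the third. Total-count scaling gave 584 lower with AdipoRonPEG5, and 883 higher and 64 lower with AdipoRon; it raised the median of all genes by 0.082 and 0.098 (log2) and the share of calls that were higher from 55.6% to 74.4% and from 73.1% to 93.2%. Fits of only the 2 groups gave 256 higher and 69 lower with AdipoRon, and DESeq2 gave 365 lower.

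The replicate numbers of the labels gave no pairing: deviations from the group means correlated at -0.268 to 0.0772 in 9 same-numbered pairs and at -0.299 to 0.316 in 18 other pairs. With a replicate block 79 genes were lower with AdipoRon, 190 were higher and 148 lower between the compounds, and the difference of *Nqo1* between the compounds (log2 1.45) had an adjusted p of 0.0671.

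The sign of an uncalled log2 fold change turned 22 times, always with AdipoRon against vehicle and 0 times for a called value; the cause was not tested. Total-count scaling gave *Keap1* 0.078, *Nfe2l2* 0.065 and *Txnrd1* 0.090. limma-voom gave *Nqo1* -0.11 and *Srxn1* -0.0083. Thinning vehicle 1 to the depth of the others gave *Txnrd1* 0.0066. Without vehicle 3 and AdipoRonPEG5 1 together, *Gclc* was at -0.12, *Nqo1* at -0.17 and *Txnrd1* at 0.010. Leaving out 1 library at a time gave *Gclc* -0.12 to 0.24, *Keap1* -0.069 to 0.0034, *Nfe2l2* -0.12 to 0.037, *Nqo1* -0.18 to 0.61, *Srxn1* -0.091 to 0.18 and *Txnrd1* -0.053 to 0.036. Depth limits *Gpx2* and *Cbr3*, which lie at or near the floor without AdipoRonPEG5.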
